A study of Mus musculus with 21 samples.

Results

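The 9 mouse miRNAs described here, known to be enriched in neurons, are mmu-miR-128-3p, mmu-miR-137-3p, mmu-miR-138-5p, mmu-miR-129-5p, mmu-miR-129-1-3p, mmu-miR-129-2-3p, mmu-miR-153-3p, mmu-miR-218-5p and mmu-miR-7a-5p, whose prefix mmu is left out below. They were chosen by name for that property and not by any value measured here, and all 9 are listed among the 1647 mature miRNAs of the count table. Small RNA was sequenced in 21 libraries from 2 organs of the mouse auditory pathway, the cochlear sensory epithelium and, in the brainstem, the auditory nuclei of the superior olivary complex (SOC). Tissue was taken at embryonic day 16 (E16), at birth (postnatal day 0, P0) and on postnatal day 16 (P16), after the onset of hearing. All animals were wild type and untreated, of the strain C57BL/6JOlaHsd for the cochlea and C57Bl6/J for the SOC, and both sexes were used. Each library was made from pooled tissue, so that differences between single animals cannot be seen. In the order E16, P0 and P16 there were 2, 4 and 4 cochlear and 4, 4 and 3 SOC libraries. For the cochlea a Direct-zol kit was used to extract RNA and the SMARTer smRNA-Seq kit to make libraries, and for the SOC the innuPREP miRNA and TruSeq Small RNA kits. A difference in level between the organs therefore cannot be told apart from a difference between the kits, and the comparisons below are of time points within an organ.

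A miRNA is cut from one arm of a hairpin transcript, and the arm is named 5p or 3p. The bases near its 5′ end, called the seed, pair with messenger RNAs, and miRNAs that share a seed are expected to share many targets. In the brain, miR-128 dampens the excitability of neurons, miR-137 takes part in neuronal differentiation, miR-138 limits the size of dendritic spines by repressing the depalmitoylating enzyme Lypla1, and miR-129-5p represses the potassium channel Kcna1. miR-153 represses SNARE proteins of synaptic vesicle release such as Snap25, miR-218 is abundant in motor neurons, and miR-7 is known for its many binding sites on the circular RNA Cdr1as.

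The mature sequences show which of these miRNAs can be told apart by reads and by seed, and are given with the seed (bases 2 to 8 from the 5′ end) in capitals. RefSeq, on GRCm38.p6, held the sequence of 8 of the 9 and was matched by name. miR-129-1-3p is named only. The sequences of the 8 are as follows, with miR-7b-5p added because it shares a seed with miR-7a-5p.
miR-128-3p: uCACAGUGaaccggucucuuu
miR-137-3p: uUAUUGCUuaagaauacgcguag
miR-138-5p: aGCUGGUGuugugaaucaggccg
miR-129-5p: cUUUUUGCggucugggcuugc
miR-129-2-3p: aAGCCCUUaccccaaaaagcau
miR-153-3p: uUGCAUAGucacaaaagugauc
miR-218-5p: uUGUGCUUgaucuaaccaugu
miR-7a-5p: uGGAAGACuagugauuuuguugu
miR-7b-5p: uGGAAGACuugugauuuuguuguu
The 8 seeds differ from each other, so none of these 8 belongs to the seed family of another. miR-7a-5p and miR-7b-5p share the seed GGAAGAC and differ by the substitution A10U, counted from the 5′ end of miR-7a-5p, and by 1 base of length (23 and 24 bases). Reads from such a pair can be split by the counting step, and both are treated as uncertain below.

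Several of the 9 are cut from a pair of hairpins at different loci. On GRCm38, miR-128-3p comes from Mir128-1 (chr1:128202361-128202430, plus strand), in an intron of R3hdm1, and from Mir128-2 (chr9:112118636-112118711, minus strand), in an intron of Arpp21. miR-138-5p comes from Mir138-1 (chr9:122682876-122682974, plus strand), in an exon of the transcribed pseudogene Gm47135, and from Mir138-2 (chr8:94324311-94324381, plus strand), in an exon of the long non-coding RNA C78859. The miR-218-5p hairpins Mir218-1 (chr5:48223942-48224051, plus strand) and Mir218-2 (chr11:35616816-35616925, plus strand) lie in introns of Slit2 and Slit3, which encode axon guidance ligands. Mir129-1 (chr6:29022619-29022691, plus strand) lies in an exon of Gm3294 and Mir129-2 (chr2:94241364-94241453, minus strand) in an intron of Mir670hg. miR-137-3p and miR-153-3p come from single hairpins, Mir137 (chr3:118433857-118433929, plus strand) in an exon of Gm26871 and Mir153 (chr12:117250817-117250885, plus strand) in an intron of Ptprn2. Mir7-1 (chr13:58392779-58392886, minus strand) lies in an intron of Hnrnpk, and Mir7-2 (chr7:78888277-78888373, plus strand) overlaps no other annotated gene.

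The libraries differed widely in depth. A cochlear library held 124400 to 447419 counts and an SOC library 8309669 to 18053698 counts, so that 3 counts, taken as the limit that a count of 0 allows, equal 6.71 to 24.1 CPM (counts scaled to a common library total) in the cochlea and 0.166 to 0.361 CPM in the SOC. These limits cover counting error only, as PCR copies cannot be told from separate molecules. The SOC libraries also fell into 3 sets that cross the time points. In set A (E16 replicates 2 and 3, P0 replicates 2 and 3) miR-99b-5p made up 17.2 to 19.6% of all counts, and in set C (P0 replicate 4, P16 replicates 2 and 3) miR-191-5p made up 0.277 to 0.322%, against 3.84 to 8.15% in the other libraries. Set B holds the rest (E16 replicates 1 and 4, P0 replicate 1, P16 replicate 1). The sets were drawn from these 2 miRNAs and are not groups of the study, and no label says what they are. As E16 has no library of set C and P16 none of set A, each SOC change described in full is given also with the set in the model.

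The labelled tissues were checked against marker miRNAs. The neuron markers miR-124-3p, miR-9-5p and miR-9-3p (3 of 3 detected) summed to 24478 to 116718 CPM in the SOC, and 7 epithelial markers of the miR-200, miR-203 and miR-205 families summed to 49.7 to 1963 CPM there and to 2498 to 22575 CPM in the cochlea. The hair cell miRNAs miR-96-5p, miR-182-5p and miR-183-5p were at 16684 to 55846 CPM in the cochlea but also at 85032 to 164652 CPM in the SOC at E16, where the label gives the cell type as neuronal, and at 521 to 3501 CPM in the SOC at P16. In bulk tissue, fewer cells of a type and less RNA per cell cannot be told apart.

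The 9 miRNAs together took 0.196 to 0.225% of the counts of a cochlear library at E16, 0.0381 to 0.0648% at P0 and 0.0403 to 0.0742% at P16. In the SOC their share was 0.407 to 0.713% at E16, 0.932 to 1.51% at P0 and 1.55 to 2.60% at P16. The 3 ranges do not overlap in the SOC, but this rests on miR-138-5p, as the share of the other 8 there was 0.309 to 0.409% at E16, 0.518 to 0.844% at P0 and 0.313 to 0.508% at P16, with E16 and P16 overlapping. In the cochlea both E16 libraries lay above all later ones, and P0 and P16 overlapped.

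Of the 9, 7 passed the low-count filter (2 or more replicates of 1 time point above 1 CPM) in the cochlea and 6 in the SOC. miR-129-1-3p and miR-129-2-3p did not pass in either organ, and miR-7a-5p did not pass in the SOC. A miRNA was called as changed where edgeR's quasi-likelihood test gave a false discovery rate (FDR) under 0.05, the fold change was over 1.5 and the replicates of the compared time points did not overlap. In the cochlea 4 of the 7 tested were called between E16 and P0, 1 higher and 3 lower, against 24.4% of the 896 miRNAs tested there (7.81% higher and 16.6% lower). Between E16 and P16, 5 of the 7 were called, 2 higher and 3 lower, against 29.6% of all tested (10.9% higher and 18.6% lower). Between P0 and P16, 1 was called, as higher, against 10.5% (3.91% higher and 6.58% lower). The median log2 fold change of the 7 was -1.60 at P0 vs E16, -1.76 at P16 vs E16 and 0.20 at P16 vs P0, beside 0.00, -0.09 and 0.05 over all tested miRNAs. Of the calls over all miRNAs, 32.0% were higher at P0 vs E16 and 37.0% at P16 vs E16, against 15.6% and 23.5% with library totals as the only scaling and 47.5% and 46.6% with limma on quantile-normalized values. With miR-7a-5p, whose P16 libraries were all at 0, set to its bound, the median at P16 vs E16 was -1.03.

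In the SOC none of the 6 tested was called between E16 and P0 by edgeR, by limma or by DESeq2, which gave no adjusted p for miR-128-3p and so could not call it. By edgeR 6.63% of the 694 miRNAs tested were called (2.45% higher and 4.18% lower). Of the 6, 2 (miR-129-5p and miR-138-5p) had an unadjusted edgeR p under 0.05. Between E16 and P16, 1 of the 6 was higher and 1 lower, against 41.2% called of all tested (21.2% higher and 20% lower), so the 6 were called no more often than the rest of the table. The P16 vs P0 comparison gave 2 calls among the 6, the same 2 miRNAs, 1 higher and 1 lower, against 16.1% (8.07% in each direction). Of all calls at P0 vs E16 in the SOC 37.0% were higher, and 49.0% with library totals and 47.6% with DESeq2. The median log2 fold change of the 6 was 0.77, 0.32 and -0.83 in the 3 comparisons, beside 0.17, 0.08 and -0.15 over all tested. With the library set in the model 0, 2 and 3 of the 6 were called, against 13.8%, 40.5% and 20.9% of all tested, where overlap was still judged over all libraries of a time point. By an FDR under 0.05 alone the numbers with the set were 4, 5 and 4 of 6, against 30.4%, 53.6% and 41.1% of all tested. Without set C, 2 of the 6 were called at P0 vs E16, against 15.2%. That setting leaves 1 library at P16, so no calls at P16 are given for it. The plot of changes by comparison sets the organs and both SOC models side by side.

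**Figure D1:**
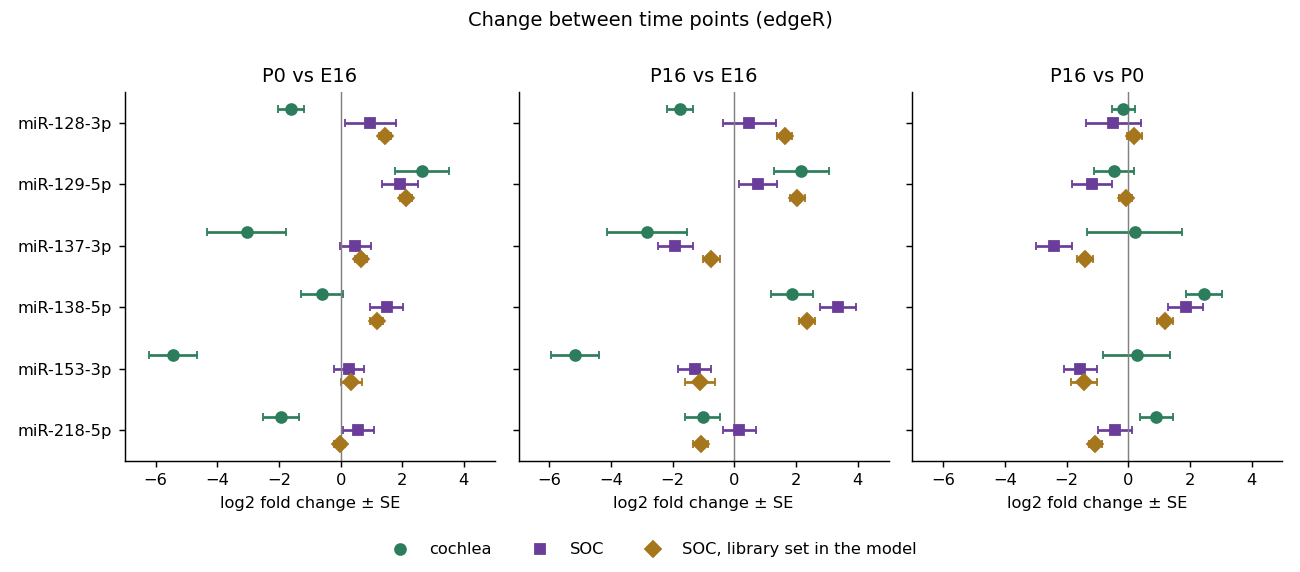
Log2 fold change ± SE (x axis) of the 6 miRNAs tested in both organs, for the 3 comparisons of time points, from edgeR in the cochlea (circles), the SOC (squares) and the SOC with the library set in the model (diamonds). At P0 vs E16 miR-128-3p, miR-137-3p, miR-153-3p and miR-218-5p lie left of 0 in the cochlea, miR-153-3p farthest at -5.44, and miR-138-5p lies right of 0 in every model at P16 vs E16 and P16 vs P0.

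miR-138-5p was the member with the largest rise in the SOC. Its TMM-normalized CPM were 2189.9, 912, 1145 and 2671 in the 4 E16 libraries. They were 3642, 2577, 2921 and 10310.1 at P0, and 12626, 19155 and 21437 at P16. Every P16 library lay above every earlier one, while P0 and E16 overlapped, and the highest P0 value belonged to replicate 4, of set C. The group means were 1729.5 ± 838 (SD, n = 4), 4862 ± 3659 (SD, n = 4) and 17739.6 ± 4573 (SD, n = 3) CPM. miR-138-5p rose 10.3-fold between E16 and P16 (log2 fold change 3.36 ± 0.59 (SE), FDR = 0.00109), a call that held without each of the 11 libraries in turn and in the other 16 alternative settings. With the set in the model the rise was 2.36 ± 0.26 (FDR = 4.93e-06). Within set B alone, with 1 P16 and 2 E16 libraries, it was 2.38. The oligodendrocyte markers (2 of 3 in the table) summed to 376 to 436 CPM in the SOC at E16, 174 to 434 CPM at P0 and 2573 to 7747 CPM at P16, and their part in the P16 changes of miR-138-5p was not tested.

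The rise of miR-138-5p in the SOC between P0 and P16 was 3.65-fold (log2 1.87 ± 0.57, FDR = 0.0398). This call was lost when any of 6 single libraries was left out, namely E16 replicate 3, P0 replicates 1, 2 and 3 and P16 replicates 2 and 3, with an FDR of 0.0524 to 0.101, and it was lost without set A (FDR = 0.237). With the set in the model it was 1.19 ± 0.25 (FDR = 0.00218). The differences within sets B and C were 1.79 (1 P16 and 1 P0 library) and 0.97 (2 P16 libraries and 1 P0 library). Between E16 and P0 the change was 1.49 ± 0.53 (FDR = 0.119), and 1.17 ± 0.22 (FDR = 0.00121) with the set in the model.

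In the cochlea miR-138-5p was counted 14 and 25 times at E16, 2, 12, 4 and 2 times at P0 and 22, 9, 31 and 29 times at P16. In normalized CPM these were 38.1 and 43.4 at E16, 10.7, 58.4, 25.7 and 11.1 at P0, and 112, 70.03, 206 and 216 at P16. In these values all P16 libraries lay above all earlier ones, although the lowest P16 and the highest P0 library came close. This order depended on the scaling of P16 replicate 2 (TMM factor 0.648). With library totals alone that library (45.4 CPM) lay below both E16 libraries (50.7 and 55.9 CPM) and P0 replicate 2 (57.9 CPM). miR-138-5p rose 5.50-fold between P0 and P16 (log2 2.46 ± 0.59, FDR = 0.000387), and the FDR stayed at or below 0.00761 without any 1 library, but in 7 of these 10 cases (without E16 replicate 1 or 2, P0 replicate 1, 3 or 4, or P16 replicate 1 or 4) the renormalized replicates overlapped. It rose 3.65-fold between E16 and P16 (log2 1.87 ± 0.67, FDR = 0.0203), a call lost without E16 replicate 1 or 2 (FDR = 0.162 and 0.187) and without P16 replicate 3 or 4 (FDR = 0.0609 and 0.0672). miR-138-5p was thus the one member called as higher at P16 than at both earlier time points in both organs. In the cochlea its level rested on 2 to 31 counts, and with library totals alone the replicates overlapped in both comparisons. The cochlear sum of the oligodendrocyte markers was also higher at P16 (296 to 511 CPM) than at E16 (13.9 to 32.7 CPM) and P0 (6.42 to 66.5 CPM), and its part was not tested.

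**Figure D2:**
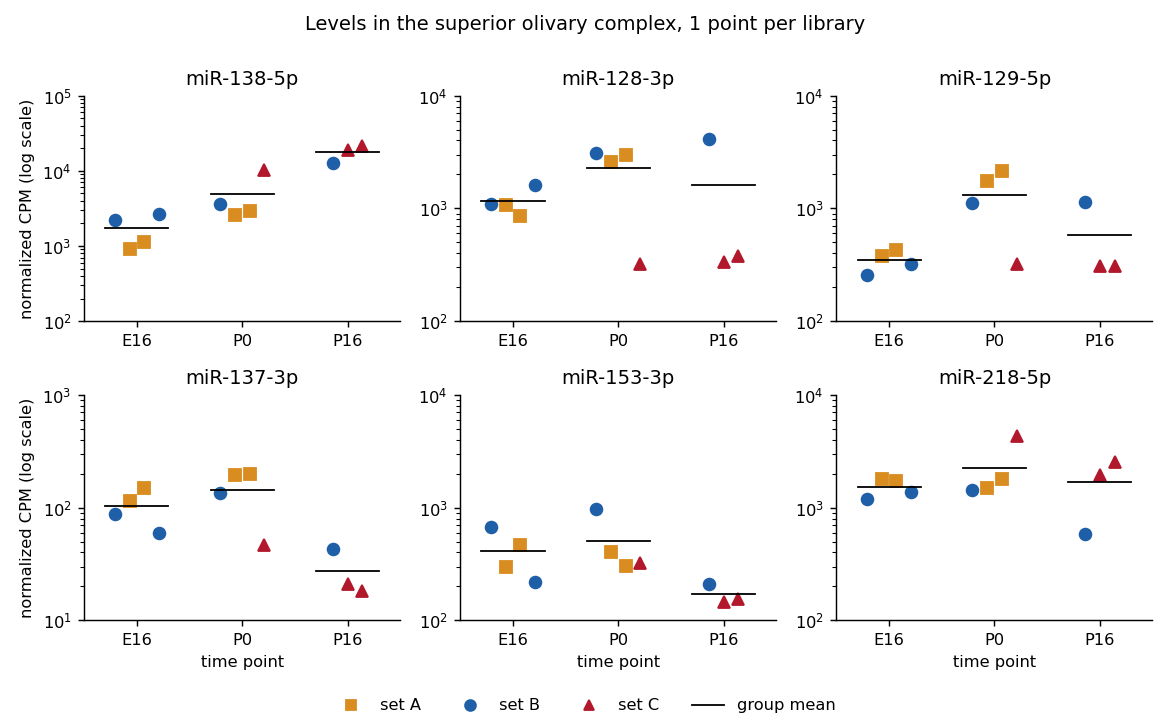
TMM-normalized CPM (y axis, log scale) of 6 of the 9 miRNAs in the 11 SOC libraries by time point, with 1 point per library marked by library set and a line at each group mean. The 3 P16 points of miR-138-5p lie above all earlier ones at 12626 to 21437 CPM, and the 3 set C points of miR-128-3p lie apart at 324 to 376 CPM.

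miR-129-5p, from the 5p arm of both miR-129 hairpins, was the other member called as higher in the cochlea. It was counted 6 and 2 times at E16, 14, 9, 11 and 9 times at P0 and 7, 8, 8 and 3 times at P16. The normalized CPM were 16.3 and 3.47 at E16, 74.9, 43.8, 70.6 and 49.8 at P0, and 35.7, 62.3, 53.1 and 22.3 at P16. Both E16 libraries lay below all later ones, which overlapped each other. The rise was 6.19-fold at P0 vs E16 (log2 2.63 ± 0.87, FDR = 0.0143) and 4.49-fold at P16 vs E16 (log2 2.17 ± 0.89, FDR = 0.0453), and it rested on these few counts. Without E16 replicate 2 neither was called, with log2 changes of 1.70 (FDR = 0.355) and 1.14 (FDR = 0.466). The call at P16 was lost also without any 1 of the P0 libraries (FDR = 0.0531 to 0.0589) and without P16 replicate 2 (FDR = 0.0599) or 3 (FDR = 0.0753).

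In the SOC miR-129-5p was at 259, 379, 432 and 321 CPM at E16, at 1111, 1738, 2128 and 325 at P0 and at 1143, 309 and 307 at P16. The values at P0 and P16 fell apart by library set, as the 3 set C libraries (P0 replicate 4 and P16 replicates 2 and 3) lay at 307 to 325 CPM, within the E16 range, and the other later libraries at 1111 to 2128. Over all libraries the change was 1.93 ± 0.60 at P0 vs E16 (FDR = 0.0705) and 0.75 ± 0.62 at P16 vs E16 (FDR = 0.334), with no call. Without set C it was called at P0 vs E16, at 2.25 (FDR = 0.000732). At P16 vs E16 the value was then 1.88, from the 1 P16 library left. Leaving out P0 replicate 4 alone was enough for the call at P0 (log2 2.32, FDR = 0.0103). It also gave a call of a fall at P16 vs P0 (log2 -1.55, FDR = 0.0297). The set model gave 2.13 ± 0.19 at P0 vs E16 (FDR = 1.64e-06), 2.04 ± 0.23 at P16 vs E16 (FDR = 5.75e-06) and -0.08 ± 0.22 at P16 vs P0 (FDR = 0.788). Within set A (2 P0 and 2 E16 libraries) the P0 vs E16 difference was 2.25, and within set B (1 and 2) it was 1.95. Without P16 replicate 1, the P16 value was -0.06 (FDR = 0.941), as only set C libraries then remained at P16.

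The 3p strands of the miR-129 hairpins were close to absent from the counts. miR-129-1-3p had no count in any cochlear library and 1 count in each of P0 replicates 2 and 3 of the SOC. miR-129-2-3p had none in the cochlea or in the SOC at E16, 1, 3, 2 and 0 counts at P0 and 0, 0 and 2 counts at P16. As both stayed within 3 counts per library, no fold change is given for either and a difference between time points was not detectable from these counts. How reads of these strands were assigned in the counting step is not given, so the counts do not show that the strands were absent from the tissue.

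miR-128-3p was lower in the cochlea after E16. It was at 991 and 1153 CPM at E16, at 460.0, 234, 353 and 366 CPM at P0 and at 281, 420.2, 299 and 268 CPM at P16, from 364 and 664 counts at E16 and 36 to 86 counts later. Both E16 libraries lay far above the other 8, and P0 and P16 overlapped. The fall was 3.04-fold at P0 vs E16 (log2 -1.60 ± 0.42, FDR = 0.00127) and 3.39-fold at P16 vs E16 (log2 -1.76 ± 0.42, FDR = 0.000232). P16 differed from P0 by -0.16 ± 0.37 (FDR = 0.838).

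In the SOC the direction of miR-128-3p depended on the library set. It was at 1094, 1069.9, 859 and 1602 CPM at E16, at 3123, 2599, 3004 and 324 CPM at P0, and at 4148, 332 and 376 CPM at P16. The 3 set C libraries lay below all E16 libraries and the other later ones above them, so that no change was called over all libraries (log2 0.97 ± 0.81 at P0 vs E16, FDR = 0.534; 0.49 ± 0.87 at P16 vs E16, FDR = 0.658). With the set in the model miR-128-3p was higher than at E16, by 1.43 ± 0.20 at P0 (FDR = 0.000117). At P16 it was higher by 1.63 ± 0.25 (FDR = 8.93e-05). Without set C it was called as higher at P0, at 1.34 (FDR = 0.00936). The P16 vs E16 value was then 2.01, from the 1 P16 library left. Within sets A (2 P0 and 2 E16 libraries) and B (1 and 2), P0 lay above E16 by 1.54 and 1.24. Without P16 replicate 1, the only P16 library outside set C, the P16 vs E16 value was -1.59 (FDR = 0.0873).

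The distance of set C from set B was larger for miR-128-3p than for any other of the 6 tested, at -3.48 ± 0.25 on the log2 scale (FDR = 8.87e-08). It was -1.90 ± 0.22 for miR-129-5p, -1.27 ± 0.25 for miR-137-3p, 0.90 ± 0.25 for miR-138-5p and 1.82 ± 0.22 for miR-218-5p, each with an FDR under 0.05, and -0.82 ± 0.42 for miR-153-3p (FDR = 0.115). Of all 694 tested miRNAs, 54.9% differed between these sets by FDR. Among the other strands of these hairpins, miR-153-5p (-1.26 ± 0.45, FDR = 0.029) and miR-218-1-3p (0.86 ± 0.32, FDR = 0.0348) differed in the direction of their partner strands, whereas no difference passed the test for miR-128-1-5p (-0.17, FDR = 0.705) or miR-128-2-5p (0.59, FDR = 0.318). The count of miR-128-3p over that of both 5p strands was 24.4 to 62.3 in set B, 19.1 to 33.5 in set A and 1.65 to 7.07 in set C, so that in the plot of miR-128 strands set C stands apart from both other sets. The 1 endothelial marker in the table was also higher in set C (up to 7481 CPM at P0 and 6155 CPM at P16), and its part in these values was not tested.

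**Figure D3:**
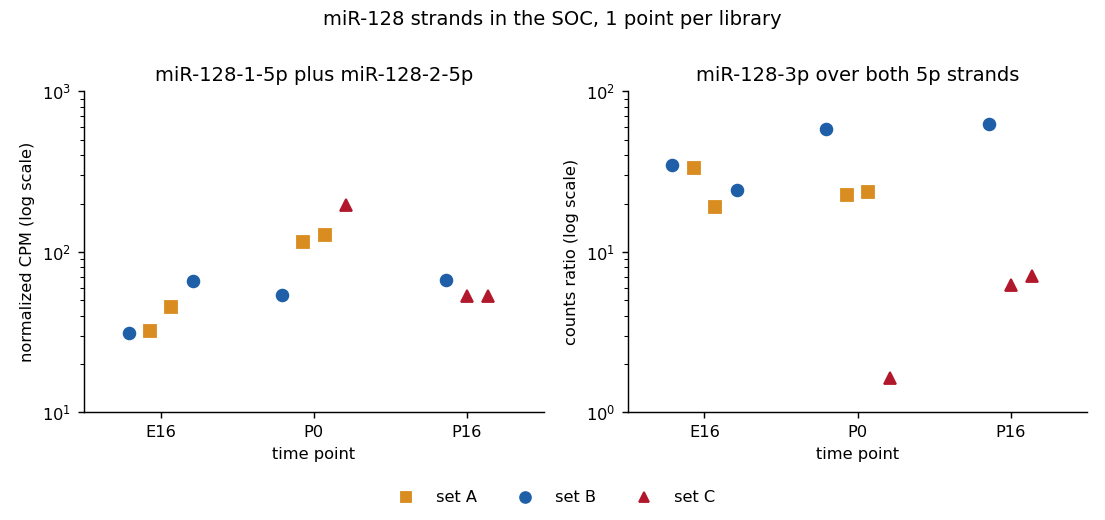
miR-128 strands in the 11 SOC libraries by time point, with the summed TMM-normalized CPM of miR-128-1-5p and miR-128-2-5p on the left and the ratio of miR-128-3p counts to the counts of both on the right (both y axes on a log scale, 1 point per library marked by set). On the right the 3 set C points lie at 1.65 to 7.07 and all others at 19.1 to 62.3, while on the left the set C points lie within or above the range of the E16 libraries.

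miR-137-3p was the one member called as lower in the SOC. It was at 88.4, 115, 149 and 59.2 CPM at E16, at 135, 194, 199 and 47.0 CPM at P0, and at 42.6, 20.9 and 18.1 CPM at P16. All P16 libraries lay below all earlier ones, with P0 replicate 4 of set C closest to them. miR-137-3p fell 3.78-fold between E16 and P16 (log2 -1.92 ± 0.57, FDR = 0.0174) and 5.28-fold between P0 and P16 (log2 -2.40 ± 0.58, FDR = 0.0149). With the set in the model these were -0.75 ± 0.28 (FDR = 0.0384) and -1.41 ± 0.25 (FDR = 0.000726), a smaller fall by more than 1.5 times.

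The P16 vs E16 call of miR-137-3p was lost without P16 replicate 2 or 3 (FDR = 0.0726 and 0.0739) and without set A (FDR = 0.173). Without set C, which leaves 1 P16 library, the value was -1.10 on the log2 scale. The P16 vs P0 call was lost without P16 replicate 2 or 3 (FDR = 0.0688 and 0.0676), and without E16 replicate 1 or P0 replicate 3 the FDR stayed under 0.05 but replicates overlapped after renormalization. The neuron marker sum was lower, with overlap against E16, and that of the oligodendrocyte markers (values above) higher at P16 as well. The neuron markers summed to 24478 to 39046 CPM at P16 against 35836 to 116718 at E16 and 48774 to 106001 at P0. Most of this sum was miR-9-5p, with a mean of 68975 CPM at E16 and 17044 at P16. The mean of miR-124-3p went the other way, from 2141 to 12831 CPM. Set C lay below set B in miR-9-5p (log2 -1.83) and above it in miR-124-3p (2.44). The part of both lists in the fall of miR-137-3p was not tested. In the cochlea miR-137-3p had 9 and 17 counts at E16, 0, 0, 1 and 1 at P0 and 0, 0, 2 and 0 at P16, so both later groups were within 3 counts per library. The 2 E16 libraries (24.5 and 29.5 CPM) lay above the 8 later ones (0 to 13.3 CPM), with an FDR of 0.0644 at P0 and 0.0765 at P16. The P0 vs E16 difference was called without P16 replicate 1 or 2 (FDR = 0.0474 and 0.0413), and that at P16 vs E16 without P16 replicate 3 (FDR = 0.0171).

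miR-153-3p had the largest cochlear fall of the 9. It was counted 80 and 175 times at E16, 2, 0, 0 and 2 times at P0 and 0, 0, 0 and 4 times at P16, which is 217.8 and 304 CPM at E16, at most 11.1 CPM at P0 and at most 29.7 CPM at P16. No later library came near the E16 values. The fitted log2 change was -5.44 ± 0.78 at P0 vs E16 (FDR = 1.90e-10) and -5.17 ± 0.78 at P16 vs E16 (FDR = 1.27e-09), where the size, unlike the direction, depends on how counts near 0 are treated. In the SOC miR-153-3p was at 679, 299, 462 and 221 CPM at E16, at 980.7, 401, 305 and 324 CPM at P0 and at 210.1, 144 and 156 CPM at P16.

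All 3 P16 libraries of the SOC lay below all earlier libraries in miR-153-3p, but the change was not called, at -1.29 ± 0.53 against E16 (FDR = 0.0679) and -1.56 ± 0.54 against P0 (FDR = 0.0605). With the set in the model the values were -1.11 ± 0.49 (FDR = 0.0687) and -1.45 ± 0.43 (FDR = 0.0156). DESeq2 called both (FDR = 0.0343 and 0.0148). It was also called against E16 without E16 replicate 4 (FDR = 0.0448) or P0 replicate 1 (FDR = 0.0358), and against P0 without P0 replicate 4 (FDR = 0.0207). Its other strand, miR-153-5p, was called as lower at P16 in both comparisons (log2 -2.57 ± 0.64, FDR = 0.00703, and -2.31 ± 0.63, FDR = 0.0261; -1.90 ± 0.51, FDR = 0.00641, and -1.92 ± 0.46, FDR = 0.0048, with the set in the model), with 52.8, 28.8, 64.4 and 14.9 CPM at E16 and 12.6, 3.50 and 4.12 CPM at P16.

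miR-218-5p was lower in the cochlea at P0 than at E16. It was at 177 and 195 CPM at E16, at 58.8, 48.7, 57.8 and 27.7 CPM at P0 and at 71.4, 70.03, 139 and 81.8 CPM at P16, from 65 and 112 counts at E16 and 5 to 21 counts later. Both E16 libraries lay above all later ones, and in these normalized values all P16 libraries lay above all P0 libraries. With library totals alone P16 replicate 2 (45.4 CPM) lay below P0 replicates 1, 2 and 3 (60.9, 48.2 and 49.5 CPM). The fall was 3.83-fold at P0 vs E16 (log2 -1.94 ± 0.58, FDR = 0.00566), and without E16 replicate 1 or 2 it was of the same size but not called (FDR = 0.0526 and 0.0569). P16 differed from E16 by -1.03 ± 0.57 (FDR = 0.147) and from P0 by 0.90 ± 0.54 (FDR = 0.261).

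In the SOC miR-218-5p was at 1199, 1787, 1709 and 1379 CPM at E16, at 1424, 1506, 1774 and 4351 CPM at P0 and at 587, 1953 and 2516 CPM at P16. The set C libraries held the highest values and the single P16 library of set B the lowest of all, and the groups overlapped. No change was called (log2 0.58 ± 0.50 at P0 vs E16, FDR = 0.553, and 0.15 ± 0.54 at P16 vs E16, FDR = 0.826). With the set in the model the direction at P16 turned, to -1.09 ± 0.25 against E16 (FDR = 0.00194) and -1.07 ± 0.22 against P0 (FDR = 0.0017). Within sets B (1 P16 and 1 P0 library) and C (2 and 1), P16 lay below P0, at -1.28 and -0.97. The value at P16 vs E16 was -0.19 without P16 replicate 3, and at P16 vs P0 it was 0.14 without P0 replicate 4 or without P16 replicate 1, so single libraries set its sign.

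**Figure D4:**
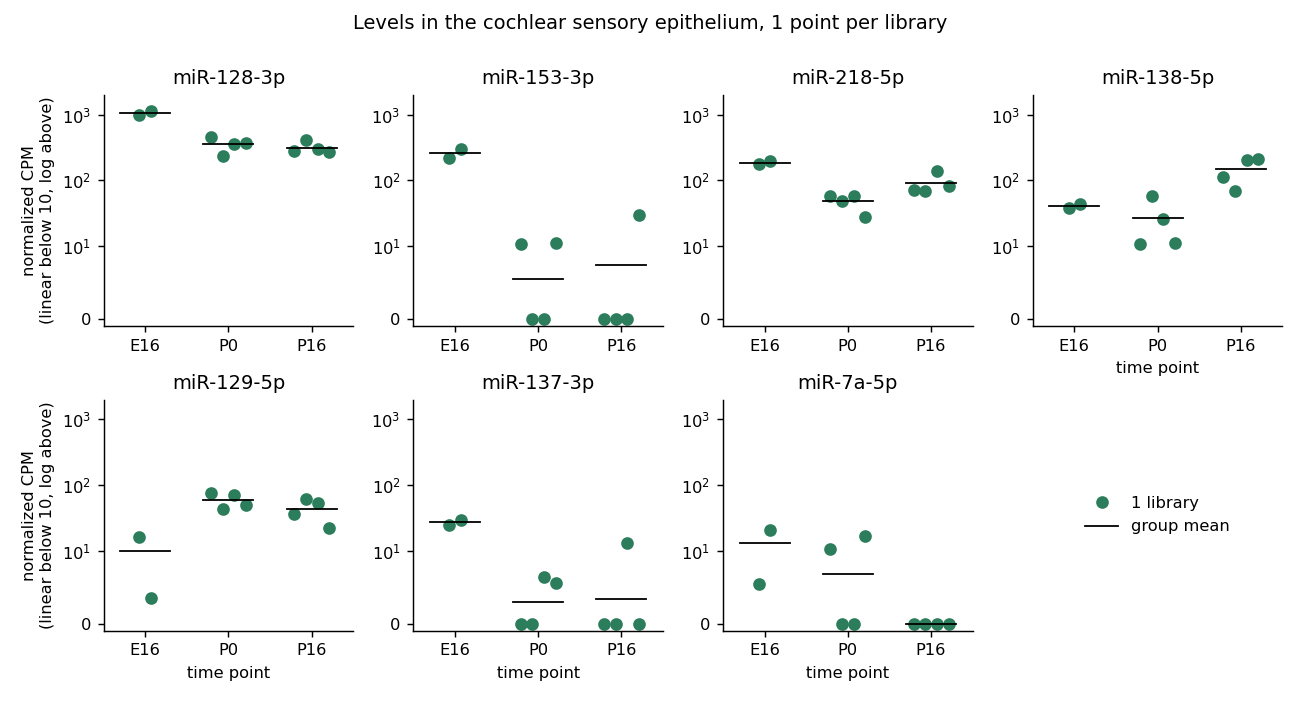
TMM-normalized CPM (y axis, linear below 10 and log above) of 7 of the 9 miRNAs in the 10 cochlear libraries by time point, with 1 point per library and a line at each group mean. The 2 E16 points lie above all later ones for miR-128-3p (991 and 1153 CPM), miR-153-3p, miR-218-5p and miR-137-3p, below all later ones for miR-129-5p (3.47 and 16.3 CPM), and below all P16 points for miR-138-5p.

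The cochlear falls of these members went with lower sums of other neuron markers, of epithelial, blood and hair cell markers and, at P0, of an endothelial one. miR-124-3p, miR-9-5p and miR-9-3p summed to 2652 to 3325 CPM at E16, 289 to 882 CPM at P0 and 638 to 1155 CPM at P16. Over the same time points the 7 epithelial markers summed to 14737 to 22575, 5657 to 7803 and 2498 to 7049.6 CPM, and the 1 endothelial miRNA in the table to 6039.5 to 6276, 738 to 1428 and 2047 to 6968 CPM. The blood markers (3 of 4 in the table) summed to 1378 to 1553, 193 to 253 and 364 to 729 CPM, with miR-451a and miR-144-3p at 0 in every P0 and P16 library, and the 3 hair cell markers to 52324 to 55846, 33733 to 37995 and 16684 to 38389.5 CPM. Not every list fell after E16. The mesenchyme markers (3 of 4 in the table) summed to 47371 to 50544 CPM at E16. They were higher at P0 (52710 to 77582 CPM) and lower at P16 (14554 to 27368 CPM). The muscle markers (3 of 4 in the table) overlapped between E16 (474 to 549 CPM) and P0 (up to 477 CPM). They were higher at P16 (1097 to 4295 CPM), as was the oligodendrocyte sum given above. The part of these shifts in the members' changes was not tested.

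miR-7a-5p was hardly counted although other strands of its hairpins were abundant. Its counts were 2 and 12 in the cochlea at E16, 2, 0, 0 and 3 at P0 and 0 in all 4 libraries at P16. In the SOC they were 0, 7, 1 and 1 at E16, 5, 2, 0 and 0 at P0 and 2, 0 and 0 at P16, out of at least 8309669 counts per library. The cochlear E16 level (mean 13.1 CPM) lies below the 20.2 CPM that 3 counts amount to on average at P16, so no fold change is given, although edgeR called it as lower at P16 vs E16 (FDR = 0.0366). DESeq2 did not call it (FDR = 0.264), and the edgeR call was lost without E16 replicate 2 (FDR = 0.256) and without any 1 of the P16 libraries (FDR = 0.0611 to 0.0682).

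miR-7b-5p, which shares the seed of miR-7a-5p, had 637 counts over the cochlear libraries and 28057 over the SOC libraries. In the SOC it was at 261, 221, 240.2 and 112 CPM at E16, at 429, 299, 260.8 and 26.6 CPM at P0 and at 61.2, 6.25 and 7.37 CPM at P16. It was lower at P16 than at E16 (log2 -3.06 ± 0.98, FDR = 0.0247), and set C lay below set B by -3.42 ± 0.36, so that with the set in the model the fall was -1.62 ± 0.40 (FDR = 0.00367). In the cochlea it was at 452 and 538 CPM at E16 and at 7.78 to 182 CPM later, with a fall of -1.90 ± 0.48 at P0 (FDR = 0.000742) and of -2.29 ± 0.49 at P16 (FDR = 2.55e-05). Whether reads of miR-7a-5p were assigned to miR-7b-5p cannot be told from the counts.

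The 3p strands of the miR-7a hairpins are distinct enough to count each hairpin separately, and are shown for that reason.
miR-7a-1-3p: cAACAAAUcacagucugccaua
miR-7a-2-3p: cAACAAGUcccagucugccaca
They differ by A7G, A10C and U21C, counted from the 5′ end of miR-7a-1-3p, and A7G lies in the seed. In the cochlea miR-7a-1-3p was at 3017 and 2544 CPM at E16, 166, 131, 302 and 199 CPM at P0 and 678, 140.1, 193 and 81.8 CPM at P16. miR-7a-2-3p was at 727 and 651 CPM at E16, 449, 526, 610.0 and 570.4 CPM at P0 and 86.7, 93.4, 39.8 and 29.7 CPM at P16. The strand from Mir7-1 thus stood at its low level by P0, whereas the strand from Mir7-2 did so only at P16.

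The cochlear fall of miR-7a-1-3p was -3.80 ± 0.42 at P0 vs E16 (FDR = 5.46e-17), and P16 differed from P0 by 0.49 ± 0.37 (FDR = 0.396). That of miR-7a-2-3p was -0.35 ± 0.44 at P0 vs E16 (FDR = 0.574) and -3.09 ± 0.43 at P16 vs P0 (FDR = 5.00e-11). The share of miR-7a-1-3p among both strands was 80.6 and 79.6% at E16, 27.0, 20, 33.1 and 25.9% at P0 and 88.7, 60, 82.9 and 73.3% at P16. The P0 libraries lay below all others. The 95% Wilson interval of the lowest P16 share, in replicate 2, was 42.3 to 75.4% and that of the highest P0 share ended at 41.2%, which covers counting error only and is no test between time points. As the pair had 15 counts in P16 replicate 4, under the minimum of 20, no test of this share across libraries was run. In the SOC the share was 42.3 to 63.1% at E16, 34.5 to 59.0% at P0 and 30.7 to 41.8% at P16, and both strands fell at P16 vs E16 (log2 -2.97 ± 0.51, FDR = 0.000883, and -1.77 ± 0.34, FDR = 0.0018). These falls were -2.14 ± 0.30 (FDR = 3.38e-05) and -1.75 ± 0.29 (FDR = 0.000172) with the set in the model.

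**Figure D5:**
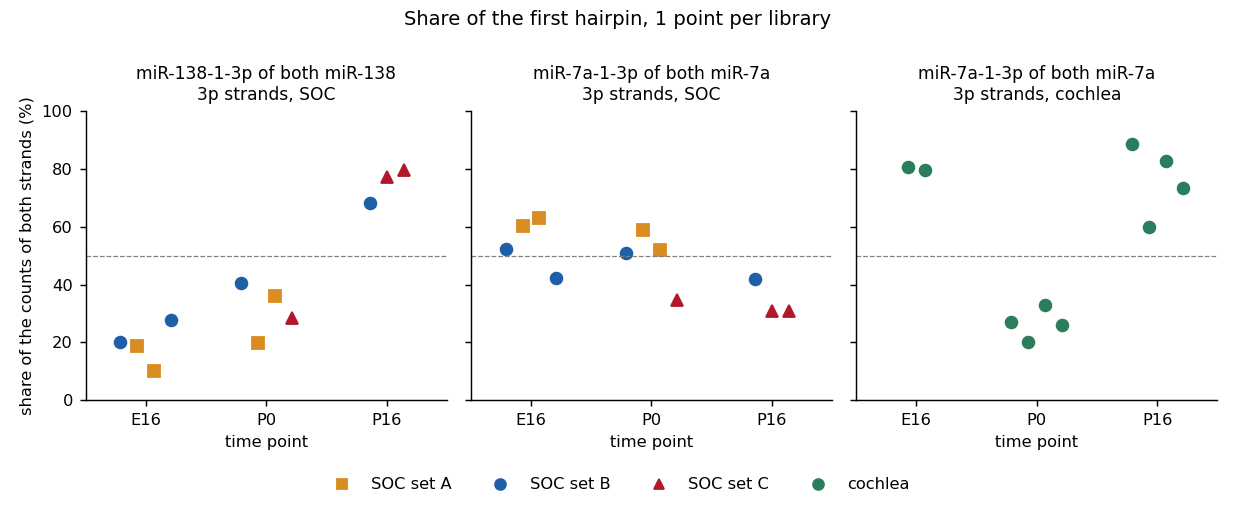
Share in % (y axis) of the first hairpin's 3p strand among the counts of both 3p strands, by time point with 1 point per library, for miR-138 in the SOC (left), miR-7a in the SOC (middle) and miR-7a in the cochlea (right). The miR-138-1-3p share is 68.0 to 79.5% at P16 and at most 40.5% before, and the cochlear miR-7a-1-3p share is 20 to 33.1% at P0 and 60% or more at E16 and P16.

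The 3p strands of the miR-138 hairpins likewise tell the loci apart, while miR-138-5p is the same from both.
miR-138-1-3p: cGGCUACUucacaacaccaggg
miR-138-2-3p: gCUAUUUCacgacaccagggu
Aligned at their 5′ ends the strands differ at 16 positions. In the SOC miR-138-1-3p was at 0.703, 0.771, 0.200 and 1.48 CPM at E16, 2.03, 1.48, 2.90 and 1.74 CPM at P0 and 25.2, 19.2 and 20.005 CPM at P16. miR-138-2-3p was at 2.81, 3.32, 1.80 and 3.82 CPM at E16, 2.98, 6.02, 5.17 and 4.42 CPM at P0 and 11.9, 5.72 and 5.17 CPM at P16. All P16 values of miR-138-1-3p lay far above all earlier ones, and those of miR-138-2-3p above all E16 values only.

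miR-138-1-3p rose by 4.74 ± 0.56 on the log2 scale between E16 and P16 (FDR = 0.000126), and miR-138-2-3p by 1.36 ± 0.45 (FDR = 0.0286). The difference of set C from set B passed the test in neither (log2 -0.45 ± 0.45 and -0.61 ± 0.41, FDR = 0.411 and 0.224). With the set in the model the rises were 4.87 ± 0.50 and 1.67 ± 0.43. The share of miR-138-1-3p among both strands was 20, 18.9, 10 and 27.9% at E16, 40.5, 19.8, 35.9 and 28.3% at P0 and 68.0, 77.0 and 79.5% at P16, over 20 to 394 counts per library. The mean log2 ratio was -2.06 ± 0.63 (SD, n = 4), -1.17 ± 0.63 (SD, n = 4) and 1.59 ± 0.45 (SD, n = 3). It was higher at P16 by 3.65 than at E16 and by 2.76 than at P0, each in 3 of 3 libraries (exact two-sided permutation test, p = 0.0286, the smallest this design allows, and 0.114 adjusted over the 12 strand ratios tested). In the cochlea miR-138-1-3p was also called as higher at P16 vs E16 (log2 3.77 ± 1.09, FDR = 0.00279), from at most 3 counts per library at E16.

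Of the 12 strand ratio tests in the SOC, none had an adjusted p under 0.05 and 3 had an unadjusted p under 0.05. The third was miR-218-1-3p over miR-218-2-3p, higher by 0.83 at P16 than at E16 (exact two-sided permutation test, p = 0.0286, adjusted 0.114). As this is the smallest p the design allows, an adjusted p under 0.05 needed that p in most of the 12 tests. Counted over the other strands of these hairpins and miR-7b, 10 of 12 passed the filter in cochlear libraries and all 12 in the SOC. In the cochlea 1 was called as higher and 2 as lower at P0 vs E16, 1 and 3 at P16 vs E16, and none and 2 at P16 vs P0. In the SOC none was called at P0 vs E16, 2 were higher and 4 lower at P16 vs E16, and 1 was higher and 3 lower at P16 vs P0. The set model added 1 call of a rise at P0 vs E16 (miR-138-1-3p, log2 1.51 ± 0.43, FDR = 0.0169) and the numbers in the other comparisons stayed as they were. These shares are read against the backgrounds above.

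The difference between the organs in the change over time was given by the interaction of organ and time in 1 model, over 545 miRNAs that include 6 of the members. Between E16 and P0, 3 of the 6 changed differently, each with a higher change in the SOC, against 11.9% of all tested (8.99% in that direction). The difference was 5.75 ± 1.15 on the log2 scale for miR-153-3p (FDR = 0.00197), 3.62 ± 1.13 for miR-137-3p (FDR = 0.0351) and 2.41 ± 0.72 for miR-218-5p (FDR = 0.0272). miR-153-3p kept its call without any 1 library. miR-137-3p lost it without any 1 of 9 libraries (SOC E16 replicate 4, P0 replicates 1, 2 and 3 and P16 replicate 2, and cochlea E16 replicates 1 and 2 and P0 replicates 1 and 2), with an FDR of 0.0521 to 0.132. miR-218-5p lost it without any 1 of 6 (SOC E16 replicate 4, P0 replicate 4 and P16 replicate 2, and cochlea E16 replicates 1 and 2 and P0 replicate 4), with an FDR of 0.0538 to 0.0918.

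With the SOC counts thinned to 196885 per library, the median cochlear total, miR-137-3p was not called (FDR = 0.07) and miR-153-3p and miR-218-5p were (FDR = 0.000338 and 0.0339). Replicate numbers paired the SOC but not the cochlear libraries here, and with the number as a block miR-218-5p was not called (log2 2.31, FDR = 0.0602), while miR-137-3p and miR-153-3p were (FDR = 0.0125 and 0.00129).

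At P16 vs E16 only miR-153-3p differed, by 3.75 ± 1.20 (FDR = 0.0324), against 16.9% of all tested (11.0% higher in the SOC), a call lost without any 1 of 8 libraries (SOC E16 replicates 2 and 3 and P16 replicates 2 and 3, and cochlea E16 replicate 2 and P16 replicates 1, 2 and 3), with an FDR of 0.0534 to 0.073, and lost after thinning (log2 3.00, FDR = 0.0658). Between P0 and P16 none of the 6 differed by edgeR, DESeq2 or limma, none had an unadjusted edgeR p under 0.05, and 6.42% of all tested did by edgeR (2.57% higher in the SOC). With the library set in the model 5, 2 and 1 of the 6 differed in the 3 comparisons, against 31.0%, 23.3% and 17.1% of all tested. miR-128-3p was then among them at P0 vs E16 and at P16 vs E16, with differences of 2.93 ± 0.40 and 3.18 ± 0.46, since it was lower in the cochlea and higher in the SOC after E16. Without the set in the model it was called at P0 vs E16 where SOC P0 replicate 4 (FDR = 0.0219) or P16 replicate 1 (FDR = 0.0201) was left out, and at P16 vs P0 without SOC P16 replicate 1 (log2 -2.42, FDR = 0.0338). The organ and the kit cannot be told apart in these differences.

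Another 11 neuron-enriched strands, of the miR-124, miR-9, miR-132, miR-212, miR-384, miR-488, miR-135a and miR-598 hairpins, were all tested in both organs. In the cochlea none rose and 6 fell at P0 vs E16, and again none rose and 6 fell at P16 vs E16, with median log2 changes of -2.11 and -2.06, or -1.87 and -1.54 with strands at 0 set to their bounds. Between P0 and P16, 2 rose and none fell. In the SOC 2 rose and none fell at P0 vs E16, 5 rose and 3 fell at P16 vs E16, and 3 rose and 2 fell at P16 vs P0. With the library set in the model 7 rose and none fell at P0 vs E16, where 13.8% of all tested were called, and the numbers in the other comparisons stayed at 5 and 3 and at 3 and 2.

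In the SOC miR-132-3p, known to be induced by neuronal activity, rose by 3.26 ± 0.42 between E16 and P16 (FDR = 0.000177), close to the 3.36 ± 0.59 of miR-138-5p. miR-212-5p, from the same cluster, rose by 3.38 ± 0.41 (FDR = 0.000131). These rises were 2.87 ± 0.32 (FDR = 5.43e-06) and 2.97 ± 0.25 (FDR = 5.28e-07) with the set in the model. miR-9-3p fell by 2.11 on the log2 scale (FDR = 0.0356), but set C lay below set B by -2.35 ± 0.30 (FDR = 1.80e-05), and with the set in the model the fall was -0.90 ± 0.34 (FDR = 0.0352). miR-135a-5p had no count in any P16 library of the SOC, and by the group mean was at least 9.24-fold lower there than at E16 (against 3 counts per library). The E16 libraries held 7 to 50 counts, and the lowest, at 0.608 CPM, lay much closer to that limit (0.296 CPM). Set C lay below set B here too, by -3.25 ± 1.19 (FDR = 0.0358), and the change with the set in the model is not given. In the cochlea the corresponding P16 vs E16 changes were 1.11 ± 0.59 for miR-132-3p (FDR = 0.129) and -3.64 ± 0.47 for miR-9-3p (FDR = 1.01e-12).

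For each tested member the miRNA with the most similar pattern over the libraries of an organ was sought among those with a mean of at least 100 CPM, by Pearson's r of log2 CPM. These correlations describe libraries that share sets and time points, and carry no test. Over the 11 SOC libraries, miR-138-5p lay closest to miR-666-3p (r = 0.982 among 174 compared), miR-137-3p to miR-9-5p (r = 0.965), miR-153-3p to miR-434-5p (r = 0.952), miR-128-3p to miR-300-3p (r = 0.910), miR-218-5p to miR-672-5p (r = 0.910) and miR-129-5p to miR-496a-3p (r = 0.824). Over the 10 cochlear libraries miR-153-3p lay closest to miR-19b-3p (r = 0.950 among 243), miR-137-3p to miR-495-3p (r = 0.916), miR-128-3p to miR-186-5p (r = 0.915), miR-138-5p to miR-34a-5p (r = 0.899), miR-218-5p to miR-148a-3p (r = 0.891), miR-129-5p to miR-125b-5p (r = 0.847) and miR-7a-5p to miR-15b-5p (r = 0.755). No member had the same nearest miRNA in both organs.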

How the data were processed

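The authors deposited 1 table of raw counts (reads per mature miRNA and library, not normalized). Per the paper's methods the reads were aligned with Bowtie to the mouse miRNAs of MirGeneDB, the submitters' processing notes name Bowtie2 2.2.5, DESeq2 and mm10, and the table uses miRBase names. How reads that fit more than 1 miRNA were assigned is not given in the sources used here. Every column was matched to its label (0 columns without a sample). Replicates are named as separate samples, and p-values measure the spread between pooled libraries. In none of the 28 pairs of libraries within a group did counts agree within sampling noise (lowest chi-square per degree of freedom 5.95).

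Counts were scaled with TMM factors and tested per organ with edgeR 4.0.16 (R 4.3.3), the 3 time points in 1 quasi-likelihood fit, with Benjamini-Hochberg FDR over all miRNAs tested. SE is the log2 fold change over the square root of F. Interactions were fitted over all 21 libraries and called by FDR alone. Strand ratios (0.5 counts added, at least 20 counts per pair in every library) were compared by exact two-sided permutation tests in scipy 1.17.1. Patterns were compared on log2 CPM with a prior count of 2. Hairpin positions are those of GENCODE on GRCm38. Alternatives were DESeq2 1.42.0, limma 3.58.1 on quantile-normalized values, other scalings and filters, a replicate block, library sets, thinning of the SOC to 196885 counts and leaving out each library. Medians of all tested miRNAs at P0 and P16 vs E16 in the cochlea were 0.00 and -0.09 with TMM and -0.38 and -0.58 with library totals alone. Replicate numbers were checked for pairing: in the SOC, P0 and E16 libraries of the same number deviated together in 4 of 4 pairs (r = 0.251 to 0.490), which comes from the values only, as no label names a shared batch. No other comparison met this criterion. In the SOC at P0 vs E16, 2 of 12 pairs of unlike number also deviated together (P0 replicate 2 with E16 replicate 3, r = 0.409, and P0 replicate 3 with E16 replicate 2, r = 0.255). These 4 libraries are all of set A, and both libraries of number 1 are of set B. A pairing by number therefore cannot be told apart from the library set for numbers 1, 2 and 3. The tests were run first on simulated counts. The members, the lists of other miRNAs, the library sets and the tests were chosen with earlier results of these data known. The text names every member, the other strands of its hairpins, and of the 11 other strands those at the ends of the P16 vs E16 changes.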

Additional observations from a re-analysis of the deposited data

Results flagged for a closer look

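In 5 of the 29 groups of 4 libraries tested, 1 library stood apart from the other 3 by Dixon's criterion at the 95% level, which chance gives in about 1 of 20 groups. In the SOC at P0 these were replicate 4 for miR-138-5p (10310.1 CPM) and for miR-218-5p (4351 CPM), both above the rest and the only set C library of that group, and replicate 1 for miR-153-3p (980.7 CPM). In the cochlea at P16 these were replicate 4 for miR-153-3p (29.7 CPM, from 4 counts where the others had none) and replicate 3 for miR-218-5p (139 CPM).

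The change over time differed between the organs by the interaction test in 4 cases. The change between E16 and P0 was higher in the SOC by 3.62 on the log2 scale for miR-137-3p, 5.75 for miR-153-3p and 2.41 for miR-218-5p, and the change between E16 and P16 by 3.75 for miR-153-3p. With the SOC counts thinned to 196885 per library, those of miR-153-3p and miR-218-5p between E16 and P0 were still called (FDR = 0.000338 and 0.0339) and the other two were not (FDR = 0.07 for miR-137-3p and 0.0658 for miR-153-3p at P16). The organs also differed in library kit, which cannot be told apart from the organ. With the library set in the model the 4 differences were 3.81, 5.77, 1.82 and 3.89.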

How the results depend on the processing

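Of 1614 values recomputed under alternative settings, 1420 kept their direction and their side of the threshold, 96 lost a call, 52 gained one and 46 changed sign, and no cause was tested. Depth limits the cochlea most, where 4 of the 7 tested members (miR-138-5p, miR-129-5p, miR-137-3p and miR-7a-5p) never had more than 31 counts in a library.

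With at least 10 counts asked in every library, miR-128-3p was the only member still tested in the cochlea. It was called in both comparisons with E16, beside 93 and 104 of the 173 miRNAs tested. It was not called at P16 vs P0, beside 54 of 173. Without a filter the cochlear members called were 3 at P16 vs E16 (240 of all 1305 tested) and 0 at P16 vs P0 (87 of 1305). With library totals 0 were called at P16 vs P0 (91 of 896). With all libraries in 1 fit 3 were called at P16 vs E16 (186 of 896). In the SOC, P0 vs E16 gave 2 without set C, with or without the overlap criterion (97 and 98 of all 637). It gave 4 with the set in the model and no overlap criterion, chosen after seeing the data (203 of all 694). P16 vs E16 gave 1 without set A (104 of all 660) and 1 after thinning (119 of 612). It gave 5 with the set and no overlap criterion (372 of 694). Without set C only 1 library is left at P16, so no calls at P16 are given for that setting. P16 vs P0 gave 0 without set A (15 of all 660) and 4 with the set and no overlap criterion (285 of 694). It gave 1 each without a filter (92 of 1484), with 10 counts in every library (88 of 448) and after thinning (24 of 612). Interactions at P0 vs E16 numbered 5 with totals or with the set, and 1 each with limma, without a filter, with 10 counts and without set A. With 10 counts in every library miR-128-3p was the only member tested for an interaction. At P16 vs E16 interactions were 2 with the set, and 0 without set A, with 10 counts or after thinning. At P16 vs P0 they were 1 with the set.

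With the replicate block, cochlear calls at P16 vs E16 went from 5 to 3, miR-137-3p turned to -0.098 (cochlea, P16 vs P0) and miR-128-3p to -0.54 (SOC, P16 vs E16). The SOC counts went from 2 to 3 at P16 vs E16 and P16 vs P0, as miR-153-3p was added (-1.39, FDR = 0.0149, and -1.63, FDR = 0.0155), although the numbers do not pair the samples there. Where libraries of the same number deviated together (SOC, P0 vs E16) the block changed no member's call within the SOC. The interaction of miR-218-5p at P0 vs E16 was lost with the block (2.31, FDR = 0.0602).

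Signs changed for miR-128-3p (0.045), miR-137-3p (-0.054) and miR-153-3p (-0.047) under limma at P16 vs P0 in the cochlea. In the SOC at P16 vs E16 miR-218-5p was -1.09 with the set, -1.20 without set C and -0.23 under limma, and miR-128-3p -0.48 under limma. miR-218-5p was -0.024 with the set at P0 vs E16, and miR-128-3p 0.20 with the set and 0.67 without set C at P16 vs P0. In the interactions miR-218-5p was -0.43 without set C and -0.27 with the set at P16 vs E16. At P16 vs P0 miR-128-3p was 0.64 and 0.24, and miR-129-5p was 0.17 without set A and 0.27 with the set.

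Leaving out 1 library at a time gave 2 to 5, 2 to 4 and 0 to 1 calls in the cochlea, 0 to 1, 1 to 3 and 0 to 4 in the SOC and 1 to 4, 0 to 1 and 0 to 1 interactions (the 2 comparisons with E16 first, P0 before P16, then P16 vs P0). The ranges of members whose sign changed were -1.76 to 0.19 for miR-7a-5p (cochlea, P0 vs E16), -0.29 to 0.0057 for miR-128-3p, -2.65 to 0.75 for miR-137-3p and -3.52 to 0.82 for miR-153-3p (cochlea, P16 vs P0). In the SOC they were -0.25 to 0.61 for miR-153-3p (P0 vs E16), -1.59 to 0.96 for miR-128-3p, -0.059 to 1.09 for miR-129-5p and -0.19 to 0.68 for miR-218-5p (P16 vs E16), and -2.61 to 0.026 for miR-128-3p and -0.67 to 0.14 for miR-218-5p (P16 vs P0). For interactions they were -2.19 to 0.0085 for miR-129-5p (P0 vs E16), and at P16 vs P0 -2.42 to 0.077 for miR-128-3p, -3.27 to 3.00 for miR-137-3p, -1.44 to 0.081 for miR-138-5p and -2.49 to 4.71 for miR-153-3p. For miR-218-1-3p over miR-218-2-3p the range was -0.36 to 0.20 (SOC, P0 vs E16).

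The ratio of miR-129-5p to its 3p strands was not run, since these were within 3 counts, nor were strand ratios in the cochlea, where each pair had under 20 counts in a library. DESeq2 gave no adjusted p for miR-128-3p in the SOC.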
